A study of Mus musculus with 9 samples.

Results

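The Toll-like receptors (TLRs) were examined in mouse microglia sorted 1 day after an antibody-mediated lesion of the striatum. The family was taken by gene symbol, as Tlr1 to Tlr9 and Tlr13, and all 10 receptors were present among the 23238 gene symbols counted. Transcripts were counted in 9 libraries, 3 per group, with the cells of 3 mice pooled for each library. All mice were female wild-type C57BL/6N. Normal mice were untreated. NMO mice, a model of neuromyelitis optica, received NMO-IgG, that is patient IgG against the astrocyte water channel aquaporin-4, into 1 striatum together with human complement. NMO+CL mice received the same striatal injection and, hours before it, clodronate liposomes into the peritoneum, which deplete phagocytes reached from the circulation. In every group the sequenced cells were those positive for CD45, CD11b and P2ry12. Control IgG or empty liposomes were not analysed here, so the surgery, the antibody and complement cannot be told apart in NMO, nor clodronate from its carrier in NMO+CL.

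TLRs are single-pass membrane receptors that bind microbial molecules and products of damaged cells through leucine-rich repeats, and microglia carry most of the mouse family. Tlr1, Tlr2, Tlr4, Tlr5 and Tlr6 act at the cell surface. Tlr2 pairs with Tlr1 or Tlr6 to recognise lipoproteins, Tlr4 recognises lipopolysaccharide together with its co-receptor Ly96 (MD-2), and Tlr5 recognises flagellin. Tlr3, Tlr7, Tlr8, Tlr9 and Tlr13 are carried to endosomes by the chaperone Unc93b1 and recognise nucleic acids, with double-stranded RNA for Tlr3, single-stranded RNA for Tlr7, unmethylated CpG DNA for Tlr9 and bacterial ribosomal RNA for Tlr13. All except Tlr3 signal through the adaptor Myd88 to NF-kB, and Tlr3 signals through Ticam1 (TRIF).

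Tlr1, Tlr2 and Tlr13 were the receptors called higher in NMO+CL than in Normal microglia, at an adjusted p under 0.05, and their promoters are shown because these calls had the same direction. The sequences are from RefSeq (GRCm38.p6), in which 8 of the 10 receptors matched a promoter entry and Tlr4 and Tlr7 did not. Each runs 5′ to 3′ on the strand of the gene and stops before the transcription start of both RefSeq and GENCODE. The stretch of Tlr1 was chr5:64933564-64933808 on the minus strand, that of Tlr2 chr3:83841768-83841858 on the minus strand and that of Tlr13 chrX:106143025-106143203 on the plus strand. Capitals mark the core of the PU.1 motif, GAGGAA, in Tlr1 and Tlr13, and 2 overlapping matches to the NF-kB motif in Tlr2.
Tlr1: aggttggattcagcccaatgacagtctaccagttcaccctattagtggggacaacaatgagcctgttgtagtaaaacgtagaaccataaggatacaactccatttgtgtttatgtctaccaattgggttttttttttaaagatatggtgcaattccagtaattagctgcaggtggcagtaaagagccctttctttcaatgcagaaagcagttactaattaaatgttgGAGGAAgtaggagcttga
Tlr2: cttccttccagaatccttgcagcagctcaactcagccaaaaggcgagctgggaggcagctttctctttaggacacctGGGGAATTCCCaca
Tlr13: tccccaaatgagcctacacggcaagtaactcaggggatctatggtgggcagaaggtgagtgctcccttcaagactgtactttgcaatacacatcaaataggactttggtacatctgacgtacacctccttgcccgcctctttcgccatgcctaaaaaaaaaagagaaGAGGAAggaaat
PU.1 is a transcription factor of the myeloid lineage. Over the 250 bases before the RefSeq start, searched on both strands, the PU.1 core was found in Tlr1, Tlr8, Tlr9 and Tlr13, and in 23.3% of all 32851 promoters of that length. The NF-kB motif was found in Tlr2 and Tlr3, and in 3.9% of all promoters. The window of Tlr3 lies wholly downstream of the gene's start in GENCODE, inside the annotated gene. An interferon response motif, GAAANNGAAA, was found in no receptor promoter and in 2.98% of all promoters. These letter matches describe the windows and were not tested as binding sites.

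The receptors lie on 7 chromosomes in GRCm38 (GENCODE M21). Tlr1 (chr5:64924679-64933563) and Tlr6 (chr5:64952031-64960097) are neighbours on the minus strand, and Tlr7 (chrX:167304929-167330558) and Tlr8 (chrX:167242696-167264329) are neighbours on the minus strand of the X chromosome, where Tlr13 (chrX:106143204-106160493) also lies on the plus strand. Tlr2 lies at chr3:83836272-83841767, Tlr3 at chr8:45395665-45411080, Tlr4 at chr4:66827584-66930284, Tlr5 at chr1:182954788-182976044 and Tlr9 at chr9:106222598-106226883. The libraries read the 3′ ends of transcripts. In the last 500 bases of the longest coding transcript of each receptor, 0 of 426 stretches of 75 bases, the read length, were shared with another gene, and no annotated gene overlapped these bases.

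Depth ran from 5788234 to 7837219 counts per library, of which the ribosomal RNA entry Rn45s took 15.98% (NMO replicate 2) to 30.98% (Normal replicate 1). Levels are given as CPM, that is counts relative to the library size, in units of 1000000, after TMM, edgeR's scaling for composition, as mean ± SD of 3 libraries. The libraries carried the signature of microglia, with all 10 microglial markers counted in every group, but the summed CPM of these markers ran from 34170 to 38815 in Normal, 29414 to 34234 in NMO and 19906 to 27559 in NMO+CL, and 7 of the 10 were called lower in NMO+CL than in Normal (4.43% of all genes), 4 lower than in NMO (1.07%), and 1 lower in NMO than in Normal (0.0244%). The abundant Cx3cr1 and Csf1r make up much of these sums, and single markers fell further. P2ry12, the marker of the sort, was at 2443 ± 337 CPM in Normal, 1648 ± 100.2 CPM in NMO and 353 ± 92.1 in NMO+CL, and Gpr34 at 842 ± 145, 585 ± 25.3 and 113 ± 30.1. The summed CPM of 9 neutrophil markers ran from 41.5 to 536 in Normal, 102 to 384 in NMO and 270 to 1314 in NMO+CL, that of 8 monocyte markers from 25.1 to 56.6, 33.2 to 73.6 and 41.0 to 81.1, and that of 4 plasmacytoid dendritic cell markers from 10.2 to 15.5, 12.7 to 18.2 and 25.1 to 36.3. Those of 8 border macrophage markers ran from 23.2 to 36.01, 10.8 to 39.0 and 17.0 to 39.7, and those of 9 lymphocyte markers from 15.8 to 20.7, 9.13 to 21.5 and 10.4 to 16.8. None of the markers of these other blood and border cells (0) was called by edgeR in any comparison. In NMO+CL against Normal, an unadjusted p under 0.05 was reached by 1 monocyte, 2 neutrophil, 1 border macrophage and 1 plasmacytoid dendritic cell marker, all higher, and by 1 lymphocyte marker, lower, while limma-voom called 2 neutrophil and 1 plasmacytoid dendritic cell marker higher, and DESeq2 called 1 plasmacytoid dendritic cell marker higher and 1 lymphocyte marker lower. In that comparison 11% of all genes were higher and 11.3% lower at an unadjusted p under 0.05, and DESeq2 called 6.48% higher and 6.36% lower and limma-voom 4.48% and 4.3%. Astrocyte and oligodendrocyte markers (8) summed to 46.2 to 103 CPM in Normal, 37.2 to 58.3 in NMO and 31.8 to 49.8 in NMO+CL. Of the 6 of them tested, 1 (Slc1a2) was called lower in NMO+CL against Normal by edgeR, from a mean of 8.90 CPM to 0.0486, with overlapping libraries, and DESeq2 called 1 lower and limma-voom 0. The part of these other cells in the results was not tested, and in pooled cells fewer cells of a type cannot be told apart from less RNA per cell.

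Microglia of untreated mice held counts for 9 of the 10 receptors. To set receptors beside each other, CPM was divided by the length in kilobases (kb) of the longest coding transcript. Tlr7 led in Normal at 37.8 CPM per kb, and its 3 libraries lay above all those of Tlr13, next at 18.9. Tlr13, Tlr3 at 15.1 and Tlr2 at 14.0 had overlapping library ranges, and the ranges of Tlr2 and Tlr4, at 9.17, also overlapped. Tlr1 followed at 5.46, Tlr5 at 4.02, Tlr6 at 2.23 and Tlr9 at 0.619 CPM per kb, and Tlr8 had 0 counts. Within that run the libraries of Tlr1 and Tlr5 overlapped, whereas those of Tlr4 and Tlr1, of Tlr5 and Tlr6, and of Tlr6 and Tlr9 did not. Reads from 3′ ends do not grow in number with transcript length, so the division can itself shift the order. In Normal the order by CPM alone was the same.

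In injected mice Tlr7 stayed first by mean CPM per kb, and Tlr2 stood next, above Tlr13 and Tlr3. In NMO, Tlr7 at 31.5, Tlr2 at 31.0 and Tlr13 at 30.8 CPM per kb had overlapping ranges, and all 3 Tlr13 libraries lay above those of Tlr3 at 15.6. By CPM alone Tlr13 was first and Tlr7 next. In NMO+CL the order was Tlr7 at 51.8, Tlr2 at 43.2, Tlr13 at 33.7 and Tlr1 at 13.8 CPM per kb, with Tlr3 at 12.6 and Tlr4 at 8.52, so that Tlr1 stood above Tlr3 on this scale. The ranges of Tlr7 and Tlr2, of Tlr2 and Tlr13, and of Tlr1 and Tlr3 overlapped, and by CPM alone Tlr13 was above Tlr2 and Tlr3 above Tlr1.

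**Figure D1:**
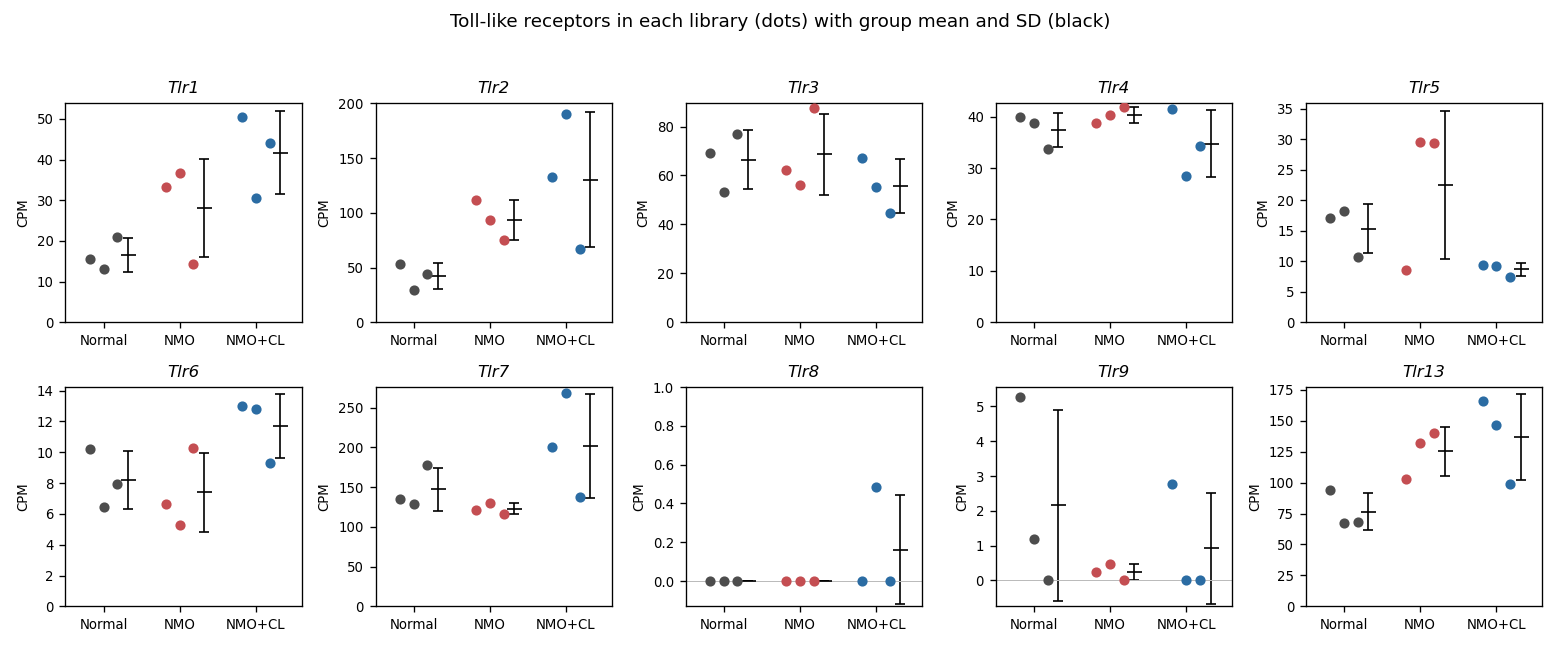
CPM of each receptor (y axis, from 0 except where an SD bar reaches below 0) in the 3 libraries of each group (x axis, dots), with the group mean and SD in black. The Tlr2 and Tlr13 dots of NMO and NMO+CL all lie above those of Normal, while Tlr4 stays between 28.5 and 41.9 CPM in all 9 libraries.

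Tlr2, the shared subunit of the lipoprotein receptors, had the largest difference from Normal of the 8 receptors tested. Its CPM was 53.1, 29.2 and 43.9 in the Normal libraries, 112, 93.3 and 75.1 in NMO, and 133, 191 and 67.1 in NMO+CL. Every library of an injected group lay above every Normal library, and within NMO+CL replicate 3 was the lowest. The mean rose from 42.1 ± 12.04 in Normal to 130.3 ± 61.8 in NMO+CL, a log2 fold change of 1.63 (SE 0.33, edgeR adjusted p = 0.003605). NMO, at 93.5 ± 18.5 CPM, differed from Normal by 1.15 on the log2 scale (SE 0.32), which missed the threshold by edgeR (adjusted p = 0.1497) and passed it by DESeq2 (adjusted p = 0.0455). Between NMO+CL and NMO the difference was 0.48 (SE 0.32, edgeR adjusted p = 0.5906), with overlapping libraries.

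Tlr1, one of the partners of Tlr2, was also called higher in NMO+CL than in Normal. Its CPM was 15.5, 13.1 and 21.0 in Normal, 33.3, 36.6 and 14.4 in NMO, and 50.5, 30.5 and 44.0 in NMO+CL. The NMO+CL libraries all lay above the Normal ones, while NMO replicate 3 lay within the Normal range. The log2 fold change of NMO+CL against Normal was 1.33 (SE 0.38, edgeR adjusted p = 0.03493), and Tlr1 was not called in NMO against Normal at 0.77 (SE 0.38, edgeR adjusted p = 0.5602). The call was lost on leaving out any 1 Normal library or NMO+CL replicate 1 or 3, when adjusted p by edgeR lay between 0.0611 and 0.1503.

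Tlr6, the other partner of Tlr2, was sparse, at 10.2, 6.47 and 7.91 CPM in Normal, 6.66, 5.27 and 10.2 in NMO, and 12.99, 12.8 and 9.29 in NMO+CL. The 3 groups overlapped, and NMO+CL differed from Normal by 0.51 on the log2 scale, with a 95% interval of -0.66 to 1.68. Tlr1 held 1.52 to 2.66 times the counts of Tlr6 in Normal, 1.41 to 6.95 times in NMO and 2.38 to 4.74 times in NMO+CL.

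Tlr4, the lipopolysaccharide receptor, stayed between 28.5 and 41.9 CPM. It was at 39.8, 38.7 and 33.7 in Normal, 38.7, 40.3 and 41.9 in NMO, and 41.4, 28.5 and 34.3 CPM in NMO+CL. The groups overlapped, and the log2 fold change of NMO+CL against Normal was -0.11, with a 95% interval of -0.68 to 0.47. Within libraries, Tlr2 counts were 0.755 to 1.33 times those of Tlr4 in Normal, 1.79 to 2.89 times in NMO and 1.96 to 6.69 times in NMO+CL. These ratios do not depend on library scaling and were computed after the values were seen, so they carry no test.

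Tlr5, the flagellin receptor, was uneven among NMO libraries, with 8.55, 29.6 and 29.3 CPM, against 17.1, 18.2 and 10.8 in Normal and 9.34, 9.23 and 7.37 in NMO+CL. All NMO+CL libraries lay below the Normal ones, but NMO replicate 1 lay within the NMO+CL range. The log2 fold change was -1.37 (SE 0.50, edgeR adjusted p = 0.215) for NMO+CL against NMO and -0.83 (SE 0.49, edgeR adjusted p = 0.3644) against Normal, neither of which passed the test.

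Among endosomal receptors, Tlr13 was called higher in NMO+CL than in Normal. Its CPM was 94.0, 67.3 and 68.3 in Normal, 103, 132 and 140 in NMO, and 166, 146 and 98.6 in NMO+CL. Libraries of both injected groups lay above Normal, and NMO and NMO+CL overlapped. The mean was 76.5 ± 15.2 in Normal mice, 125 ± 19.5 in NMO and 137 ± 34.6 in NMO+CL. The log2 fold change was 0.84 (SE 0.24, edgeR adjusted p = 0.03322) for NMO+CL against Normal, and 0.71 (SE 0.24, edgeR adjusted p = 0.2715) for NMO against Normal, which was not called. Without Normal replicate 2 or 3, or NMO+CL replicate 1 or 2, the adjusted p of the former lay between 0.1128 and 0.1432 by edgeR.

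Tlr7 had the highest mean CPM per kb in each group, and the highest mean CPM in Normal and NMO+CL but not in NMO. It was at 136, 128 and 178 CPM in Normal, 122, 130 and 116 in NMO, and 200, 268 and 137 in NMO+CL. The NMO+CL libraries lay above those of NMO and overlapped with Normal. The log2 fold change of NMO+CL against NMO was 0.72 (SE 0.23), which missed the threshold by edgeR (adjusted p = 0.1596) and passed it by DESeq2 (adjusted p = 0.0459). It also passed by edgeR without NMO+CL replicate 3, at 0.93 (adjusted p = 0.0405). In all it was called in 2 of 17 alternatives and not in the other 15, with log2 fold changes from 0.46 to 0.93.

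Tlr3, the double-stranded RNA receptor, was at 69.2, 53.4 and 76.9 CPM in Normal, 62.2, 56.1 and 87.4 in NMO, and 67.1, 55.1 and 44.8 in NMO+CL. The groups overlapped, and the difference between NMO+CL and Normal was -0.26 on the log2 scale, with a 95% interval of -0.80 to 0.29.

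Tlr9, the CpG DNA receptor, and Tlr8 did not pass the filter on low counts and were not tested. Tlr9 had 33, 8 and 0 counts in the Normal libraries, 2, 4 and 0 in NMO, and 19, 0 and 0 in NMO+CL. Each group had a library with none, and the groups overlapped. Tlr8 had 3 counts, all in NMO+CL replicate 2, and 0 in the other 8 libraries, where a count of 0 allows up to 3 counts.

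Over the family, 0 of the 8 tested receptors were called in NMO against Normal by edgeR, where 0.472% of 12292 genes were called higher and 0.0244% lower. Tlr2 and Tlr13 had an unadjusted p under 0.05, DESeq2 called 1 receptor (Tlr2) and limma-voom 0. Of all genes, 6.05% were higher and 3.46% lower at that unadjusted p, and DESeq2 called 1.35% higher and 0.515% lower and limma-voom 0.301% and 0.0488%. Between NMO+CL and NMO again 0 were called by edgeR, beside 0.529% of all genes higher and 1.07% lower. There Tlr7 (higher) and Tlr5 (lower) had an unadjusted p under 0.05, DESeq2 called 1 (Tlr7) and limma-voom 0. The shares of all genes were 4.92% higher and 7.47% lower at that unadjusted p, 1.62% and 2.32% by DESeq2, and 0.667% and 0.822% by limma-voom. Against Normal, 3 of the 8 were called higher in NMO+CL, Tlr1, Tlr2 and Tlr13, beside 4.79% of all genes. DESeq2 and limma-voom each called 3 as well, beside 6.48% and 4.48% of all genes. None of the 8 was called lower by edgeR, DESeq2 or limma-voom, beside 4.43%, 6.36% and 4.3% of all genes. At an unadjusted p under 0.05 by edgeR, 3 were higher and 0 lower, beside 11% and 11.3% of all genes. The median log2 fold change of the 8 receptors was 0.33 in NMO and 0.48 in NMO+CL, each against Normal, and 0.30 between NMO+CL and NMO, and that of all tested genes was -0.0099, -0.012 and -0.0050. Tlr12, a further receptor outside these 8 that is described at the end, went the other way in NMO+CL. DESeq2 and limma-voom called Tlr12 lower than in NMO and in Normal, and edgeR did not (adjusted p = 0.1011 and 0.07123).

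**Figure D2:**
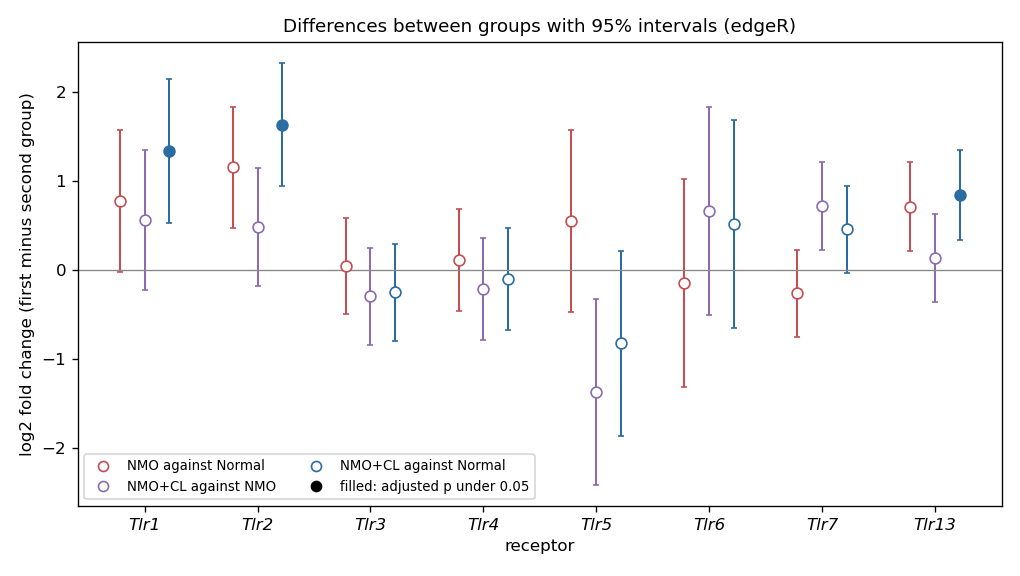
Log2 fold change (y axis) of the 8 tested receptors (x axis) in the 3 comparisons (colours), with 95% intervals of the edgeR fit as bars; filled dots have an adjusted p under 0.05. The filled dots are Tlr1, Tlr2 and Tlr13 in NMO+CL against Normal, at 1.33, 1.63 and 0.84.

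These comparisons share libraries, NMO+CL against Normal with each of the others, so that a receptor's values in them are not independent. In NMO against Normal the libraries of 2 receptors did not overlap and were higher (Tlr2 and Tlr13), as were those of 9.21% of all genes. Between NMO+CL and NMO this held for 1 receptor (Tlr7) and 7.89% of genes. In NMO+CL against Normal it held for 3 receptors (Tlr1, Tlr2 and Tlr13) and 13.8% of genes, and 1 receptor (Tlr5) was lower without overlap, as were 14.9% of genes.

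The genes whose course over the 9 libraries was most like that of the called receptors were found by the root mean square difference of mean-centred log2 CPM, over the 8840 genes whose mean count reached 50. For Tlr13 these were Mterf3, a mitochondrial transcription termination factor family gene, at 0.11, Gm4980 at 0.13 and Slc35b1, a nucleotide sugar transporter gene, at 0.13. For Tlr1 they were Snrpd1, encoding a spliceosomal core protein, at 0.22, Gsto1 at 0.23 and Nol12 at 0.24. For Tlr2 they were Ier2, an immediate early gene, at 0.28, Snhg12 at 0.29 and Eif1a at 0.30. Smaller values mean closer courses for a given receptor. They were not scaled to a gene's own spread, so the values of different receptors cannot be compared.

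Unc93b1, Ly96 and 3 further genes for proteins that carry or complement the receptors, or process them or their ligands, were called lower in NMO+CL than in Normal. Among these, Rnaset2a and Rnaset2b share 81.0% of the 75-base stretches at their 3′ ends, so their 2 calls are not separate ones. Of the 17 tested co-receptor, chaperone and trafficking genes, edgeR called 0 in NMO against Normal. At an unadjusted p under 0.05, 1 was higher and 2 lower (6.05% and 3.46% of all genes), and DESeq2 called 1 lower (0.515%) and limma-voom 0. Against NMO, NMO+CL had 1 lower by edgeR (1.07%), 2 by DESeq2 (2.32%) and 3 by limma-voom (0.822%). Unadjusted, 1 was higher and 5 lower (4.92% and 7.47%). Against Normal, NMO+CL had 1 higher and 5 lower by edgeR (4.79% and 4.43%), 1 and 5 by DESeq2 (6.48% and 6.36%) and 1 and 4 by limma-voom (4.48% and 4.3%). Unadjusted, 1 was higher and 6 lower (11% and 11.3%). The median log2 fold change of the 17 genes in this last comparison was -0.080. These shares of all genes also apply to the lists below. Unc93b1, the chaperone without which endosomal TLRs do not leave the endoplasmic reticulum, was at 909, 919 and 1036 CPM in Normal, 746, 1043 and 876 in NMO, and 555, 415 and 473 in NMO+CL. All NMO+CL libraries lay below the others, with a log2 fold change of -0.99 against Normal (SE 0.18, edgeR adjusted p = 0.001653) and -0.88 against NMO (SE 0.18, edgeR adjusted p = 0.01729). The latter call was lost in 3 of the 17 alternatives, with adjusted p up to 0.1221 without NMO+CL replicate 2.

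Ly96, the lipopolysaccharide-binding partner of Tlr4, had 10.8, 10.99 and 16.5 CPM in Normal, 9.05, 9.94 and 5.604 in NMO, and 3.36, 2.59 and 2.56 in NMO+CL. The 3 groups did not overlap. Its log2 fold change in NMO+CL against Normal was -2.16 (SE 0.63, edgeR adjusted p = 0.03714), at 16 to 23 counts per NMO+CL library, and this call was kept in 6 of 17 alternatives, with adjusted p up to 0.1762 without Normal replicate 3. Cd14, the other lipopolysaccharide co-receptor and a gene named after its values were seen, was at 233 ± 5.75 CPM in Normal, 248 ± 48.8 in NMO and 293 ± 121 in mice given clodronate and was not called.

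Lgmn, encoding an endosomal protease that can cleave TLRs, was at 1500 ± 338 CPM in Normal mice, 1536 ± 614 in NMO and 608 ± 344 in NMO+CL, lower than Normal (log2 fold change -1.30, SE 0.34, edgeR adjusted p = 0.02156), a call lost in 5 of 17 alternatives, with adjusted p up to 0.0928 without Normal replicate 3. Rnaset2a and Rnaset2b, encoding the lysosomal ribonuclease T2 that yields RNA fragments sensed by endosomal TLRs, fell by 1.03 and 1.18 in NMO+CL against Normal (edgeR adjusted p = 0.001688 and 3.24e-04). They share 81.0% of the 75-base stretches at their 3′ ends, so that their separate counts are uncertain. Slc15a3, an endolysosomal peptide and histidine transporter, went the other way, from 164 ± 19.6 CPM in Normal and 244 ± 46.8 in NMO to 308 ± 53.9 in NMO+CL (against Normal, log2 fold change 0.92, SE 0.21, edgeR adjusted p = 0.008195). Its 3′ end overlaps Tmem132a on the other strand, with which 4.7% of those stretches are shared. Without Normal replicate 3 or NMO+CL replicate 2 its adjusted p was 0.05441 and 0.05931.

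**Figure D3:**
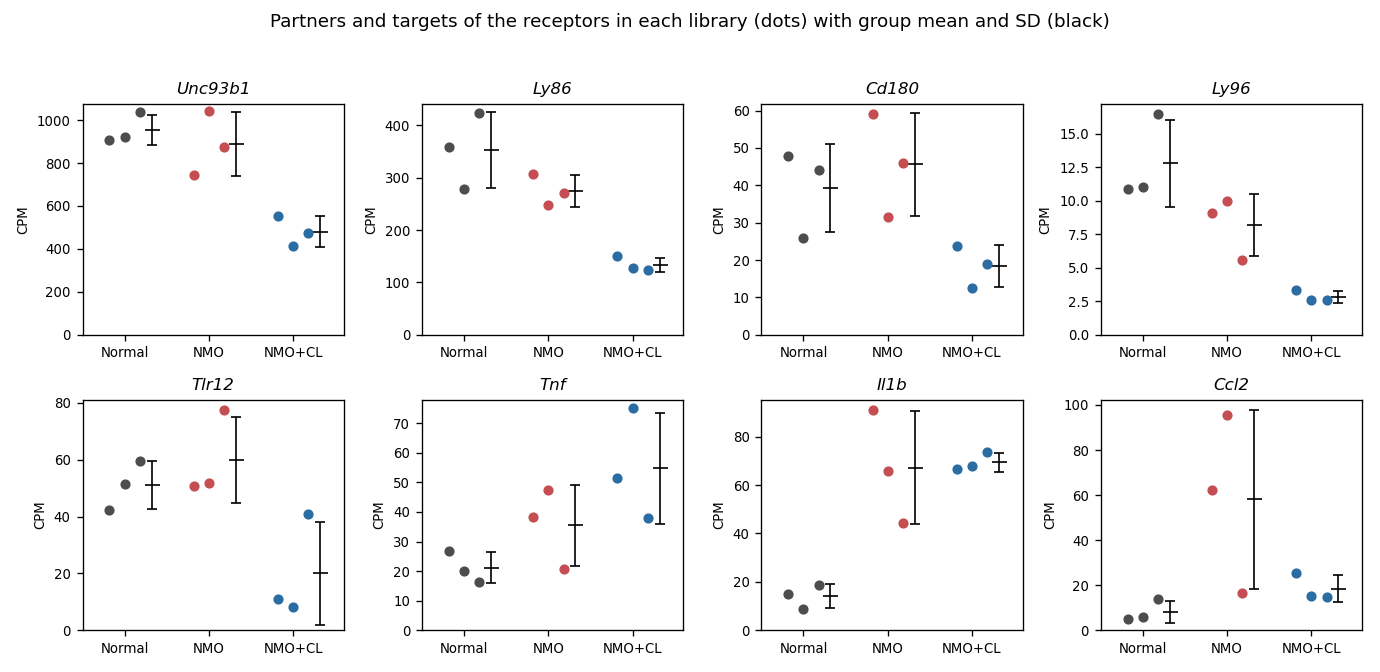
CPM (y axis, from 0) of partners and targets of the receptors in the 3 libraries of each group (x axis, dots), with the group mean and SD in black. The NMO+CL dots of Unc93b1, Ly86, Cd180, Ly96 and Tlr12 all lie below those of NMO and Normal, and the Il1b dots of both injected groups lie above Normal.

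Among 26 adaptors, kinases and transcription factors, 0 were called in NMO against Normal (edgeR; unadjusted, 2 higher and 1 lower; DESeq2 and limma-voom 0) and 0 in NMO+CL against NMO (unadjusted, 0 higher and 2 lower; DESeq2 and limma-voom 0). In NMO+CL against Normal, 2 were lower and 0 higher by edgeR (unadjusted, 3 higher and 5 lower; DESeq2 1 higher and 2 lower, limma-voom 0 higher and 2 lower), beside 4.43% of all genes lower, with a list median of -0.12. A count of 2 in 26 is near that share and is no result about the list. The genes called were Irak2, a kinase of the Myd88 complex, which fell from 58.8 ± 12.6 to 28.1 ± 4.54 CPM (log2 fold change -1.06, SE 0.29, edgeR adjusted p = 0.02588), and Tab2, an adaptor of the kinase TAK1, which fell from 336 ± 17.0 to 201 ± 23.2 CPM (-0.74, SE 0.18, edgeR adjusted p = 0.01202). The Irak2 call was lost in 5 of 17 alternatives, with adjusted p up to 0.1547 without Normal replicate 3, and that of Tab2 in none. NMO means lay between, at 36.6 ± 7.45 and 267 ± 22.5 CPM. Irak2 shares 5.4% of the 75-base stretches at its 3′ end with several other genes. Myd88, named after its values were seen, was at 63.7 ± 14.98, 72.0 ± 12.4 and 98.3 ± 19.3 CPM in the order Normal, NMO, NMO+CL and was not called (NMO+CL against Normal 0.63, SE 0.25, edgeR adjusted p = 0.1357). Its 3′ end overlaps Slc22a14.

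Of 17 negative regulators, 0 were called in NMO against Normal (edgeR; unadjusted, 2 higher and 1 lower; DESeq2 and limma-voom 0), while NMO+CL had 1 lower than NMO (1.07% of all genes; DESeq2 2 lower, limma-voom 1 lower), and 1 higher and 1 lower than Normal (DESeq2 1 and 2, limma-voom 1 and 1). The counts against Normal are close to what the 4.79% and 4.43% of all genes called higher and lower would give and are no result about the list. Ly86 (MD-1), the partner of the TLR-like receptor Cd180, was at 358, 278 and 423 CPM in Normal, 308, 247 and 271 in NMO, and 150, 127 and 124 in NMO+CL. Its NMO+CL libraries lay below all others, with a log2 fold change of -1.40 (SE 0.20, edgeR adjusted p = 2.73e-04) against Normal and -1.04 (SE 0.20, edgeR adjusted p = 0.01264) against NMO. The latter was lost without NMO replicate 1 (adjusted p = 0.0723) or NMO+CL replicate 2 (0.0820). Cd180 itself, named after its values were seen, was at 39.3 ± 11.8, 45.6 ± 13.8 and 18.4 ± 5.53 CPM in the order Normal, NMO, NMO+CL. Its log2 fold changes of -1.30 against NMO and -1.09 against Normal missed the threshold by edgeR (adjusted p = 0.08096 and 0.06201) and passed it by DESeq2 (0.03357 and 0.0461). With all genes that had a count they also passed by edgeR (0.01185 and 0.02932), as they did with the replicate block (0.03564 and 0.02986). Of the 17 alternatives, 14 did not call Cd180 against NMO and 12 did not call it against Normal. The 3′ end of Cd180 overlaps Mast4. Nfkbia, the inhibitor of NF-kB that is also induced by it, was at 576 ± 99.1 CPM in Normal and 752 ± 86.6 in NMO and rose to 1019 ± 121 in NMO+CL (against Normal, log2 fold change 0.82, SE 0.18, edgeR adjusted p = 0.006316), a call kept in all 17 alternatives.

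Genes induced through TLRs were described from a list of 24, of which 19 were tested. In NMO against Normal 2 were called higher, Il1b and Ccl2, 1 (Saa3) between NMO+CL and NMO, and 3 (Tnf, Il1b and Saa3) in NMO+CL against Normal, with none lower by edgeR. Of all genes, 0.472%, 0.529% and 4.79% were called higher. DESeq2 called 2, 0 and 3 of the list higher and limma-voom 1, 0 and 3. In NMO+CL against Normal limma-voom did not call Saa3 (adjusted p = 0.0964), so its 3 genes there were not those of edgeR. At an unadjusted p under 0.05 by edgeR, 4, 1 and 9 were higher in these comparisons, beside 6.05%, 4.92% and 11% of all genes. At that p 0, 1 and 0 were lower, beside 3.46%, 7.47% and 11.3%. DESeq2 and limma-voom called none lower. The list median was 0.62, 0.029 and 0.74 on the log2 scale. Il1b, encoding interleukin-1 beta, was at 14.98, 8.73 and 18.8 CPM in Normal, 91.2, 65.7 and 44.5 in NMO, and 66.5, 67.7 and 73.8 in NMO+CL. Both injected groups lay above Normal and overlapped each other, with log2 fold changes against Normal of 2.24 (SE 0.33, edgeR adjusted p = 0.003722) in NMO and 2.29 (SE 0.33, edgeR adjusted p = 2.93e-04) in NMO+CL.

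Tnf, encoding tumour necrosis factor, was at 26.9, 20.2 and 16.5 CPM in Normal, 38.2, 47.5 and 20.7 in NMO, and 51.5, 75.01 and 38.0 in NMO+CL. NMO+CL did not overlap with Normal (log2 fold change 1.37, SE 0.36, edgeR adjusted p = 0.02191), and NMO did (0.74, SE 0.36, edgeR adjusted p = 0.5344). The call was lost in 3 of 17 alternatives, with adjusted p up to 0.1385 without NMO+CL replicate 2. Ccl2, a monocyte chemoattractant, was at 4.94, 5.87 and 14.0 CPM in Normal, 62.2, 95.4 and 16.7 in NMO, and 25.5, 15.4 and 14.7 in NMO+CL. Both injected groups lay above Normal, and NMO replicate 3 lay within the NMO+CL range. It was called in NMO against Normal (log2 fold change 2.82, SE 0.55, edgeR adjusted p = 0.02577). This call was kept in 10 of 17 alternatives, with adjusted p up to 0.1594, and Gm17268 overlaps its 3′ end on the other strand.

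Saa3, an acute-phase apolipoprotein gene, had 0, 0 and 8 counts in Normal, 10, 105 and 18 in NMO, and 508, 655 and 96 in NMO+CL. The NMO+CL libraries stood above NMO in CPM, with a log2 fold change of 3.53 (SE 0.84, edgeR adjusted p = 0.04196) that was kept in 9 of 17 alternatives, with adjusted p up to 0.2341 without NMO+CL replicate 2. In that fit it was 2.99, and on leaving out NMO replicate 2 it was 4.99. DESeq2 and limma-voom did not call it. In the last 500 bases of Saa3, 7.3% of the 75-base stretches are shared with other genes. The neutrophil markers were also highest in this group, and their part was not tested. Cxcl10, an interferon-induced chemokine, was at 6.44 ± 6.13, 13.1 ± 5.48 and 19.1 ± 6.55 CPM in the order Normal, NMO, NMO+CL and was not called (NMO+CL against Normal 1.57, edgeR adjusted p = 0.1813). Normal replicate 3 held most of its Normal counts, and without that library the value was 2.57. Il6, encoding interleukin-6, had 49, 49 and 16 counts in Normal, 41, 62 and 6 in NMO, and 43, 11 and 0 in NMO+CL and was not called (NMO+CL against Normal -1.14, edgeR adjusted p = 0.69; -2.72 without NMO+CL replicate 1 and -0.56 without NMO+CL replicate 3).

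**Figure D4:**
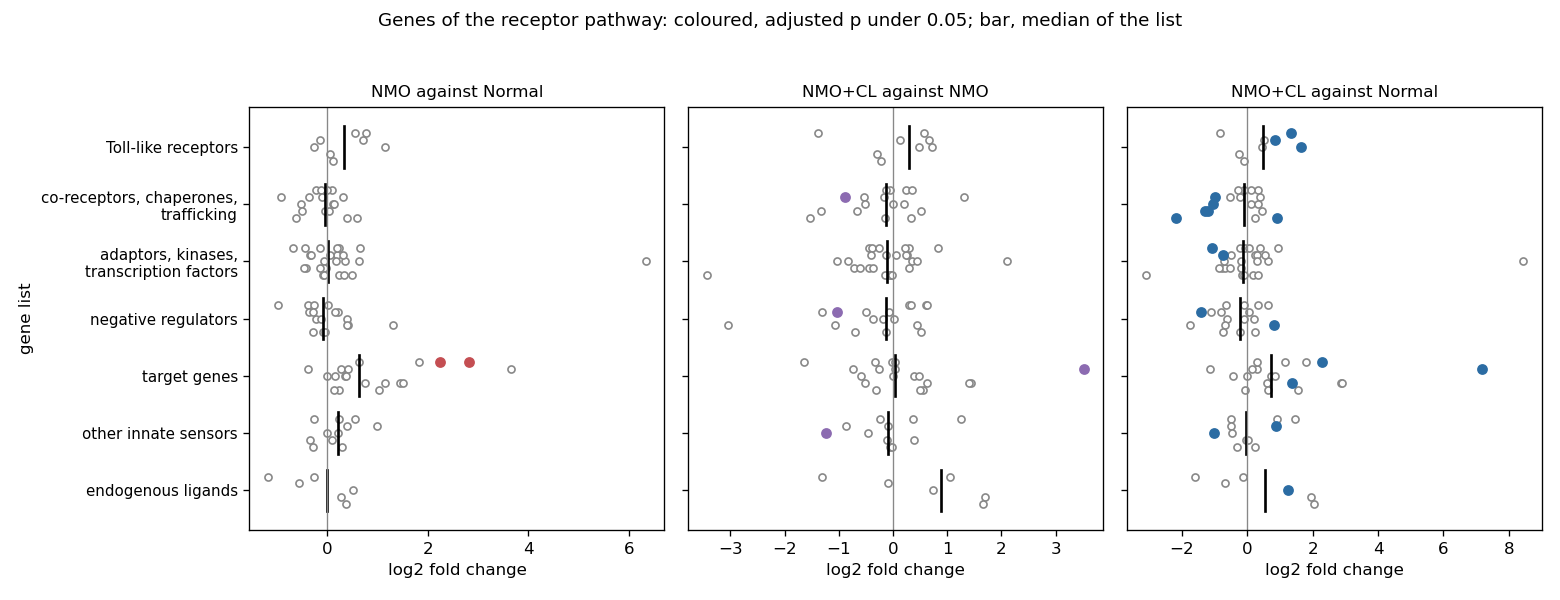
Log2 fold change (x axis) of every tested gene of the receptor family and of 6 pathway lists (y axis), in 1 panel per comparison; coloured dots have an adjusted p under 0.05 by edgeR and black bars are list medians. The coloured dots of the co-receptor, chaperone and trafficking list in NMO+CL against Normal are 5 below 0 and 1 above, while the 3 of the receptors are all above 0. Rnaset2a and Rnaset2b, which share most of their 3′ ends, are among the 5.

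Of 11 other innate sensors, 0 were called in NMO against Normal (edgeR; unadjusted, 1 higher; DESeq2 1 higher, limma-voom 0), while NMO+CL had 1 lower than NMO (1.07% of all genes; DESeq2 1 lower, limma-voom 0), and 1 higher and 1 lower than Normal (DESeq2 1 and 1, limma-voom 1 and 0). With 4.79% and 4.43% of all genes called in these directions, the counts against Normal are no result about the list. Nlrp3, the inflammasome sensor that TLR signals prime, was at 93.2, 41.8 and 53.3 CPM in Normal, 73.8, 86.5 and 56.7 in NMO, and 29.2, 34.5 and 29.0 in NMO+CL. The NMO+CL libraries lay below all others, and the log2 fold changes were -1.23 (SE 0.30, edgeR adjusted p = 0.04839) against NMO and -1.02 (SE 0.30, edgeR adjusted p = 0.03994) against Normal. These calls were kept in 6 and 7 of 17 alternatives, with adjusted p up to 0.1488 without NMO replicate 1 and 0.2699 without Normal replicate 1. Mb21d1 (cGAS), the cytosolic DNA sensor, was at 52.7 ± 12.96 CPM in Normal, 104 ± 10.5 CPM in NMO and 97.3 ± 5.88 in NMO+CL. Neither injected group overlapped with Normal. NMO missed the threshold (edgeR adjusted p = 0.07122), and NMO+CL was called higher than Normal (log2 fold change 0.88, SE 0.23, edgeR adjusted p = 0.02082), a call lost in 3 of 17 alternatives, with adjusted p up to 0.1033 without Normal replicate 1.

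Among 6 genes of endogenous TLR ligands, 0 were called in NMO against Normal (edgeR; unadjusted, 1 higher; DESeq2 and limma-voom 0) and 0 in NMO+CL against NMO (unadjusted, 2 higher; DESeq2 1 higher, limma-voom 0), and 1 was higher in NMO+CL against Normal (4.79% of all genes; DESeq2 1, limma-voom 3). That gene was Hspd1, encoding the mitochondrial chaperonin HSP60, which was at 94.0 ± 20.4 CPM in Normal and 134 ± 31.1 in NMO and rose to 224 ± 18.6 in NMO+CL (against Normal, log2 fold change 1.25, SE 0.23, edgeR adjusted p = 0.001685) and kept its call in all 17 alternatives. S100a8 and S100a9 are in this list and also among the neutrophil markers above, and the part of neutrophils was not tested.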

How the data were processed

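The authors prepared QuantSeq 3′ libraries (Lexogen) and sequenced them with single 75-base reads; Bowtie2 made the alignments, and bedtools gave gene counts from both unique and multiple ones. The submitters' processing notes name mm10; tool versions, annotation and use of strand are not given in the sources used here. The deposited values are these raw read counts, not normalized. The 9 tables hold 23282 entries for 23238 symbols, and 35 repeated symbols were summed. Annotation came from GENCODE M21 (GRCm38, the same build) and promoters from RefSeq, with Python 3.11.15 for both.

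In R 4.3.3, edgeR 4.0.16 kept 12292 genes (filterByExpr, minimum count 10, minimum total 15), scaled libraries by TMM (factors 0.891 to 1.08) and fitted a quasi-likelihood model to all 9 libraries with 1 coefficient per group. Tests were two-sided, and "called" means a Benjamini-Hochberg adjusted p under 0.05 over all genes tested. The common biological coefficient of variation was 0.519. Alternatives (17) included DESeq2 1.42.0, limma-voom (limma 3.58.1), other scalings and filters, a replicate block and leaving out each library. Libraries of a group differed by more than counting error (chi-square per degree of freedom 21.9 to 51.1). Limits on a count of 0 (3 counts) cover counting error only.

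The receptors and the gene lists were chosen with earlier results of these data known. Named are all 10 receptors, up to 6 called genes per list and comparison, Tnf, Il1b, Il6 and Cxcl10, and the 3 genes most like each called receptor (log2 CPM with a prior count of 2). Others are said to be named after their values were seen.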

Additional observations from a re-analysis of the deposited data

How the results depend on the processing

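Of the called receptors in NMO+CL against Normal, Tlr2 kept its call in all 17 alternatives, Tlr13 in 13 and Tlr1 in 12, and each kept its direction. The number of receptors called higher in that comparison was 3 with every other scaling, filter and tool and with the replicate block, and ran from 1 to 3 on leaving out 1 library (1 without NMO+CL replicate 1, and 1 without replicate 2 or 3 of Normal). In NMO against Normal it was 1 instead of 0 with all genes that had a count and with DESeq2, and 0 in every fit that left out a library. Between NMO+CL and NMO it was 1 instead of 0 with DESeq2, and 0 to 1 on leaving out a library (1 without NMO+CL replicate 3). The number called lower stayed at 0 in each comparison. The cause of these changes was not tested.

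Directions that turned on leaving out 1 library all belonged to differences that were not called. In NMO against Normal, Tlr3 ranged from -0.18 (without NMO replicate 3; -0.09 without Normal replicate 2) to 0.16, Tlr6 from -0.47 to 0.039 (without NMO replicate 2; 0.03 without Normal replicate 1) and Il6 from -0.96 to 0.062 (without NMO replicate 3). Between NMO+CL and NMO, Tlr13 ranged from -0.033 (without NMO+CL replicate 1) to 0.32, Il1b from -0.17 (without NMO replicate 3; -0.0018 without NMO+CL replicate 3) to 0.35, and Cd14 from -0.070 (without NMO+CL replicate 2) to 0.53. In NMO+CL against Normal, Tlr4 ranged from -0.25 to 0.019 (without NMO+CL replicate 2).

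The same numbers occur in each group, but nothing pairs the libraries, and deviations of same-numbered libraries from their group means correlated across genes at only -0.0148 to 0.0302. With the replicate block 0, 0 and 3 receptors were called higher in the 3 comparisons. Depth limits Tlr8 and Tlr9, at 0 to 33 counts per library, and Tlr6, at 43 to 89.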

Other observations

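Tlr12, an endosomal receptor for profilin that lies outside the family list described above and was named after its values were seen, was counted in every library. Its CPM was 42.2, 51.6 and 59.4 in Normal, 50.7, 51.8 and 77.3 in NMO, and 10.9, 8.26 and 41.0 in NMO+CL. The NMO+CL libraries lay below all others, with replicate 3 close to the lowest Normal library. The log2 fold change was -1.58 (SE 0.45, edgeR adjusted p = 0.1011) against NMO and -1.35 (SE 0.45, edgeR adjusted p = 0.07123) against Normal. DESeq2 (adjusted p = 0.03297 and 0.03995) and limma-voom (adjusted p = 0.02086 and 0.0159) called both, as did edgeR without NMO+CL replicate 3, at -2.64 and -2.41 (adjusted p = 0.0009979 and 0.00034), with all genes that had a count and with the replicate block, so that each was called in 5 of 17 alternatives. Tlr11, a related receptor, had 3 counts in NMO+CL replicate 2 and 0 elsewhere.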
